A study of Canis lupus familiaris with 12 samples.

Results

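Potassium and sodium channel subunits were followed in 2 heart tissues, left ventricle and mitral valve, of diseased and control dogs. The disease is degenerative mitral valve disease (DMVD), in which the leaflets thicken and no longer close tightly, so that blood leaks from the ventricle to the atrium. Members were all genes whose symbol begins with KCN, the stem of potassium channel names, or consists of SCN, a number and A or B, the voltage-gated sodium channel names. Of 24223 rows listed for each tissue, 94 matched these patterns, 1 was left out by the selection rule, and 93 stayed: 82 KCN rows and 11 SCN rows. Of the 93, 6 are non-coding RNA rows named after KCNQ1 (KCNQ1OT1 on 4 rows and KCNQ1DN on 2), so 87 are channel genes or their partners. The name patterns themselves use no measured value, but they were set with earlier results of these data known.

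The series holds 12 RNA sequencing libraries from 8 dogs, 4 with DMVD and 4 controls. DMVD left ventricle came from 2 dogs (Jack Russell Terrier, 5 years; Pomeranian, 9 years), and control left ventricle from 4 dogs, a Beagle of 8 years and 3 Hound mix dogs of 3 years. DMVD mitral valve came from 3 dogs, the same Pomeranian and Beagles of 17 and 16 years, and control mitral valve from 3 dogs, the Beagle of 8 years and 2 of the Hound mix dogs of 3 years. Both tissues came from 1 DMVD dog and 3 control dogs, no treatment is given in the labels, and diagnosis cannot be told apart from breed and age. The authors deposited a single value per gene, tissue and diagnosis, read here as FPKM (fragments per kilobase of transcript, scaled to the number of mapped fragments). No value per dog was used, so the spread between dogs and the depth of each library are unknown. Every FPKM value below is the authors' group value, and every SE is the error implied by the authors' own test of that gene, not a spread between dogs.

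Channel subunits set the electrical behaviour of the cell membrane. Voltage-gated sodium channels open first and start the action potential of heart muscle, and several classes of potassium channel then repolarise the cell and hold its resting potential. Pore subunits form the ion path, whereas beta subunits (KCNE, KCNMB, KCNAB, KCNIP and the SCN genes ending in B) change how the pores open, close or reach the membrane. Valve leaflets are mainly connective tissue with interstitial and endothelial cells, but heart muscle of the atrium reaches into the base of the leaflets, and smooth muscle cells and nerves occur in them.

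Most members were low in both tissues. The authors ran their test on 38 of the 93 members for the valve and on 27 for the ventricle. The tested share in the valve was 40.9% of members, against 61.1% of all rows, and in the ventricle 29.0% of members, against 56.9% of all rows. Both tissues had a test for 23 members, at least 1 tissue for 42 and neither for 51. The untested 51 include most neuronal Kv, KCNH and SCN pore genes, and KCNN2, a small-conductance calcium-activated channel, was the highest of them in the valve, at 0.4997 FPKM in DMVD valve against 0.620 FPKM in control valve. Values of 0 in both diagnoses were listed for 10 members in the valve and 11 in the ventricle. Control valve held 26 members at 1 FPKM or more and 8 at 10 FPKM or more, and control ventricle 19 and 6. Several subunits of the main cardiac currents, among them KCNQ1, KCND3 and KCNMA1, had no row under their symbol and were not analysed here.

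Summed by family, inward rectifiers and KCNE subunits were the highest families of control tissue. The 11 KCNJ rows, inward rectifiers that include acetylcholine-activated and ATP-sensitive channels, summed to 83.2 FPKM in DMVD valve against 100.9 FPKM in control valve. In the ventricle they summed to 50.7 FPKM in DMVD samples and 86.2 FPKM in control samples. The 5 KCNE rows summed to 30.0 FPKM in DMVD valve and 45.0 FPKM in control valve, and to 51.1 FPKM in DMVD ventricle and 60.1 FPKM in control ventricle. The 4 KCNMB rows, beta subunits of the large-conductance calcium-activated BK channel, were mainly a valve signal: 45.9 FPKM in DMVD valve and 28.6 FPKM in control valve, against 4.48 FPKM in DMVD ventricle and 4.21 FPKM in control ventricle. Sodium channel beta subunits summed to 16.1 FPKM in DMVD valve, 15.8 FPKM in control valve, 12.4 FPKM in DMVD ventricle and 8.18 FPKM in control ventricle. The 7 sodium pore rows that were present summed to 3.50 FPKM in DMVD valve, 2.27 FPKM in control valve, 1.48 FPKM in DMVD ventricle and 0.935 FPKM in control ventricle. Family sums carry no test. When each group was scaled to the same sum over all genes, every valve log2 fold change moved up by 0.22 and every ventricle one by 0.83, and the ventricle differences of the KCNJ, KCNE and voltage-gated pore families changed direction.

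**Figure D1:**
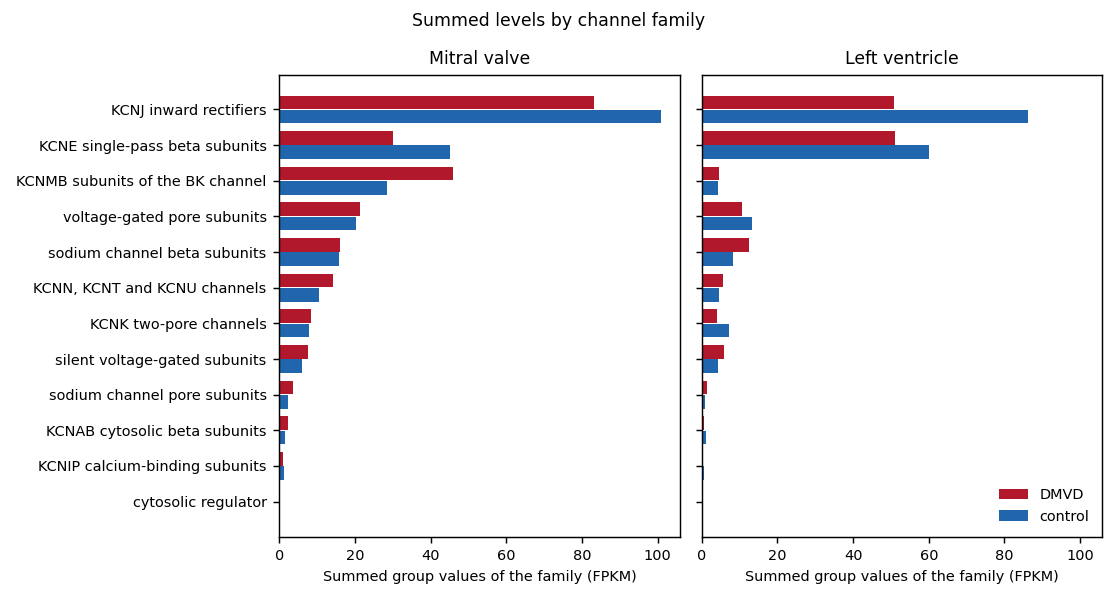
Summed group values in FPKM (horizontal axes) of each channel family (rows) in mitral valve (left) and left ventricle (right), with DMVD in red and control in blue; the non-coding RNA rows are left out. KCNJ rectifiers reached 100.9 FPKM in control valve and 86.2 FPKM in control ventricle, and KCNMB subunits 28.6 and 4.21 FPKM in the same groups.

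Control valve and control ventricle shared some of their highest members and differed in others. In control valve the highest was KCNJ3 (Kir3.1, a pore of the acetylcholine-activated channel of atrial muscle) at 47.6 FPKM. KCNE1, the beta subunit that slows the KCNQ1 channel, followed at 38.04 FPKM and KCNMB4, a BK beta subunit, was the next channel gene at 25.0 FPKM. In control ventricle the highest was KCNE1 at 51.1 FPKM, followed by KCNJ4 (Kir2.3) at 40.7 FPKM and KCNJ8 (Kir6.1, a pore of ATP-sensitive channels) at 34.3 FPKM. Of 29 members at 1 FPKM or more in control valve or control ventricle, 13 were at least 2-fold higher in valve, 4 were at least 2-fold lower and 12 lay within 2-fold. The same fold was reached by 21.9% of 13436 such genes towards the valve and by 4.5% towards the ventricle. These tissue ratios have no test, because the tables of the tissues were normalised separately, and the median log2 ratio of all genes above 1 FPKM in both tissues was 0.31.

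Among the 29 members at 1 FPKM or more in either control tissue, KCNU1 and KCNJ3 showed the widest valve to ventricle gaps. KCNJ3 was at 47.6 FPKM in control valve and 0.217 FPKM in control ventricle, a log2 ratio of 7.78. Its partner KCNJ5 (Kir3.4), which forms the acetylcholine-activated channel together with KCNJ3, stood at 14.8 FPKM in control valve and 10.8 FPKM in control ventricle. KCNU1, a relative of the BK channel best known from mammalian sperm, was at 3.82 FPKM in control valve and 0.0126 FPKM in control ventricle, a log2 ratio of 8.24. KCNJ3 was thus above 10 FPKM in control valve and below 1 FPKM in control ventricle, while its partner was above 10 FPKM in both.

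Other members at 1 FPKM or more also stood at least 2-fold higher in control valve. SCN4B and SCN2B, beta subunits of sodium channels, had log2 ratios of 3.79 and 1.67, with SCN4B at 4.90 FPKM in control valve and 0.353 FPKM in control ventricle. KCNMB4 and KCNMB1 had log2 ratios of 3.26 and 1.497. KCNT2, a sodium-activated potassium channel, had a log2 ratio of 3.98, and SCN9A, the Nav1.7 pore of sensory neurons, one of 2.66. KCNK6, KCNK7, KCNIP3 and KCNQ1OT1_5 were also past 2-fold on this side. The 4 members at least 2-fold lower in valve were KCNK13, KCNV2, KCNE2 and KCNJ8, with log2 ratios of -2.08, -1.77, -1.27 and -1.07. With equal sums over all genes KCNJ8 came out at a log2 ratio of 0.01 and KCNJ4, at -0.93 as deposited, at 0.16; the count was then 21 higher and 1 lower in valve, beside 13 and 4 as deposited.

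The tissue labels were set beside defining markers. Of 5 fibroblast and valve interstitial markers with a row, the sum was 1213 FPKM in control valve and 92.6 FPKM in control ventricle, and the ventricle held TNNT2, a thin filament protein of heart muscle, at 7051 FPKM in control dogs. Control valve held TNNT2 as well, at 4523 FPKM. MYH7, the slow myosin heavy chain, was listed at 0 in control ventricle with a status that marks no test, so muscle sums of the ventricle are not given. Markers of atrial muscle moved with this tissue contrast. The 4 atrial cardiomyocyte markers with a row (of 7 listed) summed to 1841 FPKM in control valve and 45.5 FPKM in control ventricle, 40.5-fold apart. MYL4, the atrial myosin light chain, stood at 1631 FPKM in DMVD valve and 1792 FPKM in control valve, and at 106.1 FPKM in DMVD ventricle and 33.5 FPKM in control ventricle. Conduction tissue markers were 7.78-fold and Schwann cell and nerve markers 2.90-fold higher in sum in control valve, against control ventricle. Their part in the channel ratios was not tested. In such bulk samples, fewer cells of a type and less RNA per cell cannot be told apart.

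**Figure D2:**
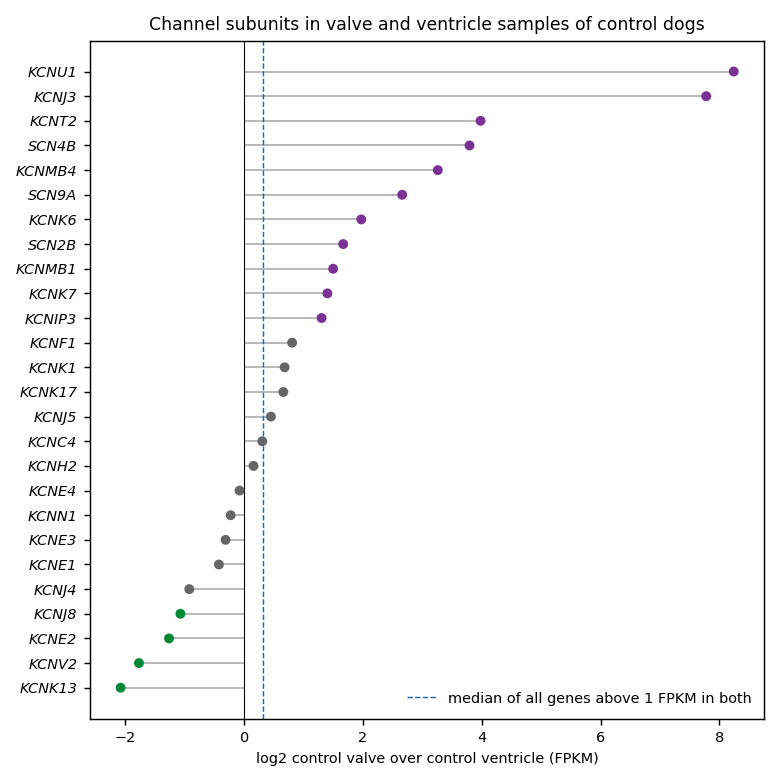
Log2 ratio of control mitral valve over control left ventricle (horizontal axis, FPKM) for 26 channel genes at 1 FPKM or more in either tissue, 1 point per gene. KCNU1 and KCNJ3 lie farthest to the right, at 8.24 and 7.78, and KCNK13 farthest to the left, at -2.08.

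**Figure D3:**
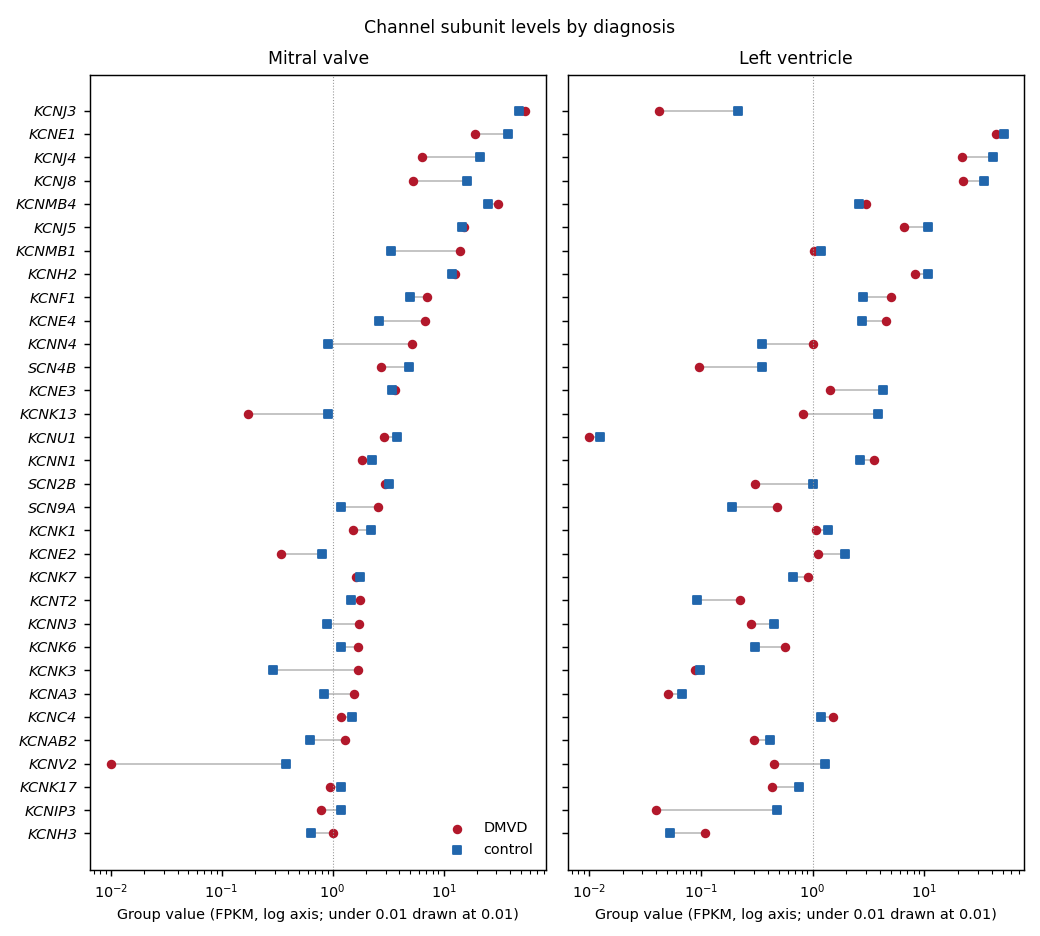
Group values (FPKM, log axis) of 32 channel genes at 1 FPKM or more in at least 1 group, in mitral valve (left) and left ventricle (right), DMVD in red and control in blue, 1 value per group. KCNJ3 sits at 54.8 FPKM in DMVD valve and 47.6 FPKM in control valve and below 1 FPKM in both ventricle groups.

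In the left ventricle, 1 of the 27 tested members passed the test: KCNK13 fell, and none rose. KCNK13 encodes THIK-1, a two-pore potassium channel that carries background current and is inhibited by halothane. It was at 0.820 FPKM in DMVD ventricle and 3.83 FPKM in control ventricle, 4.67-fold lower. The log2 fold change was -2.22 ± 0.51 (SE; 95% interval -3.21 to -1.23), with an adjusted p of 0.000916 by Benjamini-Hochberg over the 13788 tested genes, computed from the p-values of the authors' deposited table. The gene, ENSCAFG00000032734, lies on chromosome 8 from 61126883 to 61225058 in CanFam3.1. Across all tested genes of the ventricle 3.08% passed the same threshold, 1.92% upwards and 1.16% downwards, and 3.70% of the tested members did, which is near that background. With a Bonferroni adjustment over the same genes the adjusted p of KCNK13 was 0.148.

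The next ventricle differences did not pass the adjustment. SCN2B was at 0.307 FPKM in DMVD ventricle and 1.02 FPKM in control ventricle, a log2 fold change of -1.73 ± 0.58 (SE) with an adjusted p of 0.0780. KCNV2, a silent subunit that modifies Kv2 channels, was at 0.449 FPKM in DMVD ventricle and 1.29 FPKM in control ventricle (log2 fold change -1.52 ± 0.66, adjusted p = 0.271 from the authors' deposited p-values). KCNJ4 was at 21.6 FPKM in DMVD ventricle and 40.7 FPKM in control ventricle (log2 fold change -0.91 ± 0.42, adjusted p = 0.320 from the authors' deposited p-values). These 3 genes and KCNK13 are among the 5 members whose p in the authors' deposited table was under 0.05 before adjustment, 1 higher and 4 lower in DMVD. The 5 are 18.5% of the tested members, against 11.3% of all tested genes, of which 5.74% were higher and 5.51% lower in DMVD.

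The subunits of the repolarising currents did not pass the test in the ventricle. KCNH2, the pore of the rapid delayed rectifier, was at 8.30 FPKM in DMVD ventricle and 10.8 FPKM in control ventricle (log2 fold change -0.37 ± 0.49, 95% interval -1.33 to 0.58). KCNE1 was at 44.0 FPKM in DMVD ventricle and 51.1 FPKM in control ventricle (log2 fold change -0.22 ± 0.47, 95% interval -1.14 to 0.70). KCNJ5 was at 6.53 FPKM in DMVD ventricle and 10.8 FPKM in control ventricle (log2 fold change -0.73 ± 0.42, 95% interval -1.56 to 0.10). The direction of these 3 genes turned when groups were scaled to equal sums, where they came out higher in DMVD. That scaling rests on a few very high rows. The log2 ratio of ventricle sums, DMVD over control, was -0.83 over all rows and 0.28 without the 20 highest. KCNJ8 was at 22.3 FPKM in DMVD ventricle and 34.3 FPKM in control ventricle (log2 fold change -0.62 ± 0.62), and its direction turned under that scaling as well. KCNJ8 shares its listed locus with ABCC9, the gene of a regulatory subunit of the same ATP-sensitive channel. Over the tested members, 12 were higher and 15 lower in DMVD ventricle, with a median log2 fold change of -0.29, against -0.04 over all tested genes.

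Marker genes of other cell types moved in the same ventricle samples. Of the Schwann cell and nerve markers, 2 of 9 tested fell, among them NGFR, a nerve growth factor receptor, at 0.326 FPKM in DMVD ventricle against 3.22 FPKM in control ventricle. The 11 marker rows of that list summed to 65.0 FPKM in DMVD ventricle and 67.4 FPKM in control ventricle. PMP22 made up much of both sums, at 45.9 FPKM in DMVD ventricle and 34.7 FPKM in control ventricle. It was the only 1 of the 9 tested that stood higher in DMVD. The median log2 fold change of the 9 was -0.79, against -0.04 over all tested genes. All 6 tested neutrophil markers rose, with sums of 379 FPKM in DMVD ventricle and 14.3 FPKM in control ventricle, and all 3 tested red cell markers rose, with sums of 44.8 and 1.26 FPKM in the same groups. Of 4 tested macrophage markers 1 rose, with sums of 24.2 FPKM in DMVD ventricle and 8.05 FPKM in control ventricle, and of 3 tested adipocyte markers 2 fell, with sums of 6.43 and 15.7 FPKM in the same groups. Of 5 tested endothelial markers 2 rose and none fell, with sums of 142 FPKM in DMVD ventricle and 57.2 FPKM in control ventricle. Of 4 tested mast cell markers 1 rose and 1 fell, with sums of 64.3 FPKM in DMVD ventricle and 15.5 FPKM in control ventricle. Most of both sums was SRGN, which rose, at 62.6 FPKM in DMVD ventricle and 10.5 FPKM in control ventricle. CPA3 fell, at 0.510 and 2.98 FPKM in the same groups. The other tested mast cell markers, FCER1A and MS4A2, were lower in DMVD ventricle and did not pass. Of 4 tested fibroblast and valve interstitial markers 1 rose, with sums of 78.3 FPKM in DMVD ventricle and 92.6 FPKM in control ventricle. The part of these markers in the KCNK13 result was not tested.

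In the mitral valve, none of the 38 tested members passed the adjustment by Benjamini-Hochberg over the 14810 tested genes, and 6 had a p in the authors' deposited table under 0.05 before it. Across all tested valve genes, 0.419% passed, 0.311% upwards and 0.108% downwards, and 4.2% were under 0.05 before adjustment (2.73% higher and 1.47% lower in DMVD). Among the tested members 15.8% were. The 6 were KCNMB1, KCNN4, SCN9A and KCNK3, which stood higher in DMVD valve, and KCNJ4 and KCNK13, which stood lower.

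KCNMB1, the BK beta subunit of smooth muscle, stood at 14.1 FPKM in DMVD valve and 3.34 FPKM in control valve, a log2 fold change of 2.08 ± 0.65 (SE; 95% interval 0.80 to 3.37) with an adjusted p of 0.181. KCNN4, an intermediate-conductance calcium-activated channel of blood cells and proliferating cells, was at 5.15 FPKM in DMVD valve and 0.907 FPKM in control valve (log2 fold change 2.51 ± 1.14, adjusted p = 0.904 from the authors' deposited p-values). SCN9A was at 2.55 FPKM in DMVD valve and 1.197 FPKM in control valve (log2 fold change 1.09 ± 0.51, adjusted p = 0.972 from the authors' deposited p-values). KCNK3 (TASK-1), a two-pore background channel of atrial muscle and pulmonary artery, was at 1.69 FPKM in DMVD valve and 0.289 FPKM in control valve (log2 fold change 2.55 ± 1.26, 95% interval 0.08 to 5.02). The 95% intervals of these 4 genes are wide. On the log2 scale they begin at 0.27 for KCNN4, 0.09 for SCN9A and 0.08 for KCNK3, small differences, and at 0.80 for KCNMB1.

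On the lower side, KCNJ4 was at 6.41 FPKM in DMVD valve and 21.4 FPKM in control valve, a log2 fold change of -1.74 ± 0.53 (SE; 95% interval -2.79 to -0.69) with an adjusted p of 0.150. KCNK13 was at 0.174 FPKM in DMVD valve and 0.906 FPKM in control valve (log2 fold change -2.38 ± 0.91, adjusted p = 0.531 from the authors' deposited p-values), so its valve values are low in both groups. KCNJ8 was at 5.34 FPKM in DMVD valve and 16.3 FPKM in control valve, with a log2 fold change of -1.61 ± 0.82. KCNE1 was at 19.2 FPKM in DMVD valve and 38.04 FPKM in control valve, with a log2 fold change of -0.99 ± 0.66 (95% interval -2.28 to 0.31).

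The atrial channel pair differed by less than its errors in the valve. KCNJ3 was at 54.8 FPKM in DMVD valve and 47.6 FPKM in control valve (log2 fold change 0.20 ± 0.60, 95% interval -0.97 to 1.37), and KCNJ5 at 15.2 FPKM and 14.8 FPKM in the same groups (log2 fold change 0.04 ± 0.50, 95% interval -0.93 to 1.01). KCNMB4 was at 31.2 FPKM in DMVD valve and 25.0 FPKM in control valve (log2 fold change 0.32 ± 0.74), and KCNH2 at 12.6 FPKM and 11.98 FPKM in the same groups (log2 fold change 0.07 ± 0.56). Over the tested valve members, 22 were higher and 16 lower in DMVD, with a median log2 fold change of 0.13, against 0.05 over all tested genes.

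Marker genes moved in the valve samples too. The 6 cardiomyocyte markers with a row (of 14 listed) summed to 6973 FPKM in DMVD valve and 12897 FPKM in control valve. Of the 6, 1 passed: MYL3, a ventricular and slow muscle myosin light chain, fell to 36.6 FPKM in DMVD valve, against 1335 FPKM in control valve (log2 fold change -5.19 ± 0.68, adjusted p = 2.64e-10 from the authors' deposited p-values). TNNT2 was at 1846 FPKM in DMVD valve and 4523 FPKM in control valve (log2 fold change -1.29 ± 2.52). MYH7 was at 1280 and 3068 FPKM in the same groups (log2 fold change -1.26 ± 7.63). ACTC1 was the only 1 of the 6 that stood higher in DMVD valve, at 3164 FPKM against 2785 FPKM in control valve. The 4 atrial cardiomyocyte markers summed to 1698 FPKM in DMVD valve and 1841 FPKM in control valve, and none of them passed or had an unadjusted p under 0.05. The smooth muscle markers summed to 1713 FPKM in DMVD valve and 786 FPKM in control valve. TAGLN made up most of both sums, at 1572 FPKM in DMVD valve and 699 FPKM in control valve (log2 fold change 1.17 ± 0.77). Of 5 tested smooth muscle markers 4 stood higher in DMVD valve, and SMTN stood lower, at 34.2 FPKM against 37.6 FPKM. None of the 5 passed (2 had a p under 0.05 before adjustment in the authors' deposited table), and CNN1 was close to 0 in both groups. Macrophage markers summed to 41.8 FPKM in DMVD valve and 15.0 FPKM in control valve, and none of 4 tested passed (1 under 0.05 before adjustment in the authors' deposited table). Of 5 tested endothelial markers 1 rose, with sums of 97.4 FPKM in DMVD valve and 38.3 FPKM in control valve, and of 5 tested neutrophil markers 1 rose, with sums of 44.3 and 8.83 FPKM in the same groups. None of 3 tested adipocyte markers passed, although all 3 had a p under 0.05 before adjustment in the authors' deposited table, and their list summed to 16.0 FPKM in DMVD valve and 58.4 FPKM in control valve. The part of these markers in the values of KCNJ4, KCNE1, KCNMB1 and KCNN4 was not tested.

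**Figure D4:**
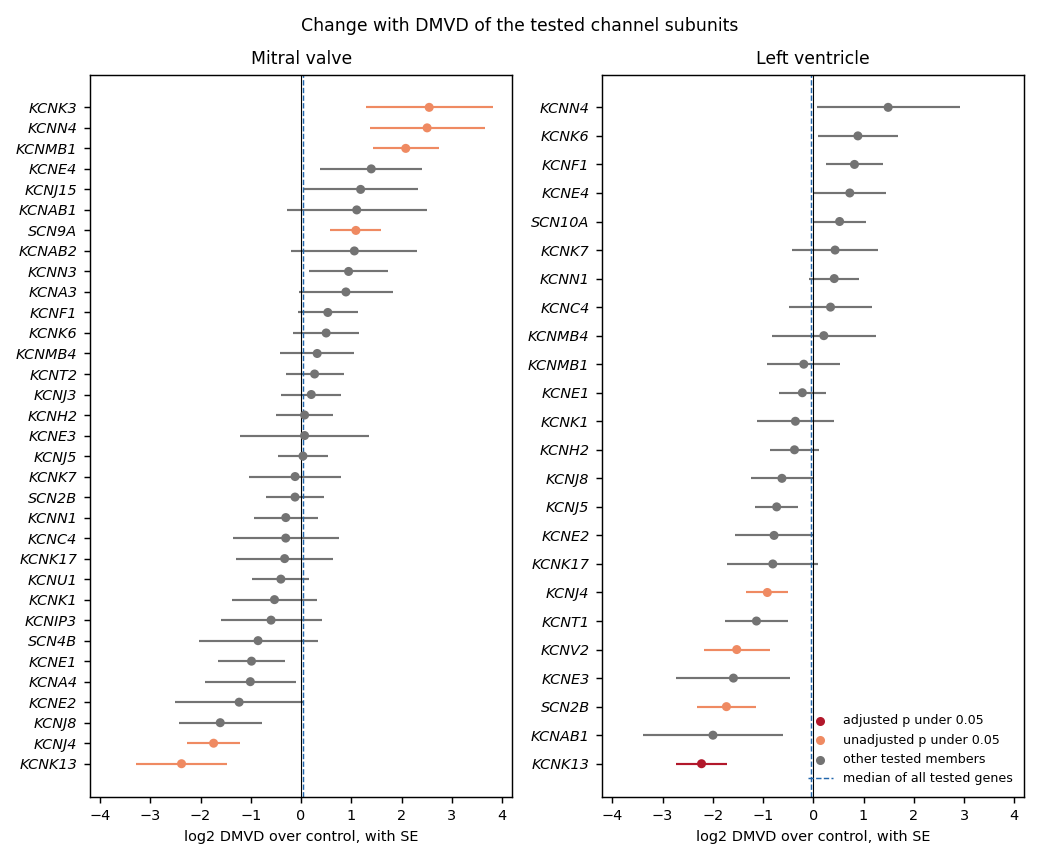
Log2 fold change of DMVD over control with its SE (horizontal bars) for 33 tested members of the valve and 24 of the ventricle with an SE under 3, in mitral valve (left) and left ventricle (right). KCNK13 in the ventricle, at -2.22 ± 0.51, is the member that passed an adjusted p of 0.05, drawn in dark red. Orange marks an unadjusted p under 0.05, and the dashed line is the median of all tested genes.

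The DMVD effect was also compared between tissues, as the valve log2 fold change minus the ventricle one, for the 23 members tested in both. None passed the adjustment over 13099 genes, where 0.107% of all genes did. Of these 23 members, 2 had an unadjusted p under 0.05, against 2.66% of all genes. KCNMB1 differed by 2.27 ± 0.98 (SE), with 14.1 FPKM in DMVD valve and 3.34 FPKM in control valve beside 1.04 FPKM in DMVD ventricle and 1.18 FPKM in control ventricle. SCN2B differed by 1.61 ± 0.81, with 2.97 and 3.23 FPKM in DMVD and control valve beside 0.307 and 1.02 FPKM in DMVD and control ventricle. KCNK13 differed by -0.16 ± 1.04, and KCNJ4 by -0.83 ± 0.68. This comparison treats the tissues as independent, although 4 dogs gave both.

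Further members by role did not pass in either tissue where tested. KCNE4, a beta subunit that dampens several Kv channels, was at 6.87 FPKM in DMVD valve and 2.61 FPKM in control valve (log2 fold change 1.40 ± 1.01), and at 4.56 FPKM in DMVD ventricle and 2.76 FPKM in control ventricle (log2 fold change 0.73 ± 0.72). KCNE3 was at 3.63 FPKM in DMVD valve and 3.46 FPKM in control valve, and at 1.43 FPKM in DMVD ventricle and 4.30 FPKM in control ventricle (log2 fold change -1.59 ± 1.13 in the ventricle). KCNE2, which pairs with KCNH2, stayed under 2 FPKM in every group. The intervals of these genes are wide, so a 2-fold difference in either KCNE3 or KCNE2 lies within them in both tissues.

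Among pore genes, KCNF1, a silent Kv5.1 subunit, was at 7.17 FPKM in DMVD valve and 4.96 FPKM in control valve, and at 5.00 FPKM in DMVD ventricle and 2.84 FPKM in control ventricle (log2 fold changes 0.53 ± 0.59 in valve and 0.82 ± 0.57 in ventricle). KCNN1, a small-conductance calcium-activated channel, was at 1.84 FPKM in DMVD valve and 2.28 FPKM in control valve, and at 3.56 FPKM in DMVD ventricle and 2.67 FPKM in control ventricle. KCNN3, of the same family, was at 1.73 FPKM in DMVD valve and 0.897 FPKM in control valve (log2 fold change 0.94 ± 0.78) and untested in the ventricle. KCNA4, a pore of the transient outward current, was at 0.429 FPKM in DMVD valve and 0.864 FPKM in control valve (log2 fold change -1.01 ± 0.91), and KCNA3, a Kv channel of lymphocytes, at 1.57 and 0.845 FPKM in the same groups (log2 fold change 0.89 ± 0.93). Outside the pore genes, the beta subunit SCN4B was at 2.70 FPKM in DMVD valve and 4.90 FPKM in control valve (log2 fold change -0.86 ± 1.18). SCN10A, the Nav1.8 pore of sensory neurons, was at 0.823 FPKM in DMVD ventricle and 0.573 FPKM in control ventricle (log2 fold change 0.52 ± 0.53).

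Some members could not be weighed. KCNQ1OT1_5, one row of the non-coding RNA that overlaps KCNQ1, was at 42.2 FPKM in DMVD valve and 37.0 FPKM in control valve, and at 31.4 FPKM in DMVD ventricle and 12.8 FPKM in control ventricle, with an SE of 9.82 on the log2 scale in the valve and 7.202 in the ventricle. Its listed locus is shared with 12 other rows, and that of KCNH3, a neuronal Kv channel, with 7. KCNQ1OT1_3 was listed at 5.31 FPKM in DMVD ventricle and at 0 in control ventricle, and has no fold. KCNV2 in the valve was untested, at 0.00787 FPKM in DMVD samples and 0.378 FPKM in control samples.

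Proteins that bind these channels were followed through a list of potassium channel partners, 10 of whose 12 genes had a row. In the ventricle 2 of 7 tested partners fell, against 1.16% of all tested genes, and none rose. ABCC8 (SUR1), the regulatory subunit of ATP-sensitive channels of pancreas and neurons, was at 0.364 FPKM in DMVD ventricle and 1.996 FPKM in control ventricle (log2 fold change -2.46 ± 0.67, adjusted p = 0.0130 from the authors' deposited p-values). LRRC38, an auxiliary subunit of the BK channel, was at 0.430 FPKM in DMVD ventricle and 2.55 FPKM in control ventricle (log2 fold change -2.57 ± 0.65, adjusted p = 0.00454 from the authors' deposited p-values). In the valve 1 of 6 tested partners fell, against 0.108% of all tested genes: DPP6, a partner of the transient outward Kv4 channels, at 0.565 FPKM in DMVD valve and 4.42 FPKM in control valve (log2 fold change -2.97 ± 0.67, adjusted p = 0.00613 from the authors' deposited p-values). The median log2 fold change of the list was -0.77 in the valve, against 0.05 over all tested genes, and -0.89 in the ventricle, against -0.04. Sodium channel partners gave no call, with 13 tested in the valve and 11 in the ventricle, and medians of -0.19 and -0.22. Before adjustment, 2 of these partners in the valve and 0 in the ventricle had a p under 0.05 in the authors' deposited table. Of all tested genes, 4.2% in the valve and 11.3% in the ventricle did.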

How the data were processed

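The 12 libraries were read by RNA sequencing. Per the labels' protocols, extraction used an RNeasy fibrous tissue kit, library preparation TruSeq and sequencing a HiSeq 2000. Tools named in the submitters' processing notes are cutadapt, Bowtie and TopHat, with the build CanFam3.1; the program for FPKM was not given in the sources used here. Per the file headers, the authors deposited per tissue 1 value per group, a log2 fold change (control over DMVD), a test statistic (a score) and an unadjusted p-value. The headers name no unit; the deposited group values were read as FPKM from the Cuffdiff-like column layout. With group values alone, depth is unknown and no spread between samples could be computed.

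Fold changes were turned to DMVD over control on the log2 scale, and the SE is the size of each one over its deposited statistic. P-values were adjusted by Benjamini-Hochberg over all tested genes at 0.05. Untested rows got no call. A few genes are not reported here. The valve-minus-ventricle effect was tested with summed squared SE. Computation used Python 3.11.15, numpy 2.4.6, pandas 2.3.3 and scipy 1.17.1, with figures in matplotlib 3.10.9, and was tested on simulated data. Members and gene lists were chosen with earlier results of these data known. Named genes were those past the threshold or under 0.05 unadjusted, the 8 highest control levels, the 8 largest tissue ratios in each direction and a fixed list of cardiac current genes. Others, such as KCNQ1OT1_3, were named after their values were seen. Alternatives were other adjustments, thresholds, filters, pseudocounts and scalings.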

Additional observations from a re-analysis of the deposited data

How the results depend on the processing

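The ventricle count of members past the threshold was 1 as reported, 0 with a Bonferroni adjustment (KCNK13 adjusted p of 0.148), 0 among genes averaging 5 FPKM or more, a filter that KCNK13 does not pass, and 2 at a threshold of 0.1, where SCN2B joined with an adjusted p of 0.0780. Over these settings the adjusted p ranged from 0.000810 to 0.148 for KCNK13 and from 0.0749 to 1 for SCN2B. The count stayed 1 among genes averaging 1 FPKM or more, with centring on the median and with named genes alone. The valve count was 0 in its 6 alternatives and the count for the tissue difference 0 in its 3. Adding 1 FPKM brought the ventricle log2 fold change of KCNK13 to -1.41 and equal sums to -1.39. The valve value of KCNJ5 was -0.0100 after centring. Equal sums turned the sign of 8 of 46 named values, none of which had passed. The deposited sums differ mostly through a few very high rows. Over all rows, the log2 ratio of sums, DMVD over control, was -0.83 in the ventricle and -0.22 in the valve. Without the 20 highest rows it was 0.28 in the ventricle and 0.02 in the valve. The control tissue count of 17 members at least 2-fold apart (13 higher, 4 lower in valve) was 22 with equal sums (21 higher, 1 lower), 17 relative to the median ratio (12 higher, 5 lower), 4 among members at 5 FPKM or more (3 higher, 1 lower) and 10 with 1 FPKM added (8 higher, 2 lower). The cause of these shifts was not tested. No paired analysis was possible because the tables hold one value per group, and leaving out single libraries was not possible for the same reason. Depth limits are unknown; the authors' SE had a median of 0.61 in the valve and 0.53 in the ventricle over all tested genes.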

Other observations

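Several groups of ion transport and regulator genes outside the channel subunits gave no call by Benjamini-Hochberg in either tissue. The hyperpolarisation-activated channels, which carry the pacemaker current, were a valve signal: HCN4 was at 12.1 FPKM in DMVD valve and 8.75 FPKM in control valve, against 0.339 FPKM in DMVD ventricle and 0.197 FPKM in control ventricle. None of the 3 tested HCN genes in the valve and the 1 in the ventricle was under 0.05 before adjustment. Of the sodium pump genes, none of 10 tested passed in the valve and none of 8 in the ventricle. Their median log2 fold changes were -0.02 and 0.14. Before adjustment 0 in the valve and 2 in the ventricle had a p under 0.05 in the authors' deposited table. Of all tested genes, 4.2% in the valve and 11.3% in the ventricle did. None of 6 tested other sodium and leak channel genes in the valve and of 4 in the ventricle passed, and 0 were under 0.05 before adjustment in either tissue. Among regulators of cardiac channel genes, none of 10 tested passed in the valve and none of 9 in the ventricle. Before adjustment 3 in the valve and 0 in the ventricle were under 0.05, against 4.2% and 11.3% of all tested genes. The 3 were IRX3, IRX4 and IRX5, all lower in DMVD valve. IRX5 was at 1.03 FPKM in DMVD valve and 4.06 FPKM in control valve (log2 fold change -1.99 ± 0.90). IRX4, a ventricular transcription factor, was at 0.0135 FPKM in DMVD valve and 1.86 FPKM in control valve, with a log2 fold change of -7.11 ± 2.74 that did not pass, and IRX3 was at 0.115 FPKM in DMVD valve and 1.54 FPKM in control valve (log2 fold change -3.75 ± 1.11). FGF13, a sodium channel partner, was at 1.12 FPKM in DMVD valve and 4.83 FPKM in control valve (log2 fold change -2.10 ± 0.64, adjusted p = 0.147 from the authors' deposited p-values).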
